A study of Mus musculus with 2 samples.

Results

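Bok and Trp53inp1, 2 regulators of cell death, were both less abundant in the Trrap-deleted embryonic mouse cortex than in the control cortex. The pair was chosen by the symbols and the measured control and Trrap-deleted values of a table of 2381 gene rows that had passed the authors' test, so their values are a description and carry no test here. Each gene had 1 row in that table. RNA was sequenced from cortices of embryos at stage E14.5 on a B6/129 background, in 2 libraries. The control library is entered as wild type, but its genotype is TrrapF/+ NestinCre+, with 1 floxed Trrap allele and the Cre transgene. The Trrap-deleted library is TrrapF/F NestinCre+. Both groups thus carried Nestin-Cre, which acts in precursors of the nervous system, so cells of other origin within the cortex are not its target. How many embryos went into a library, and of which sex, is not given in the labels.

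There was 1 library per genotype, so no value below has a replicate error and the spread between embryos is unknown. Values are FPKM (fragment counts scaled by transcript length and library size) as the authors deposited them, and the depth of the libraries is unknown. "Listed" means that a row passed the authors' test, and a gene that is not listed may be unchanged or too weakly expressed. In a tissue sample, fewer cells of a type and less RNA per cell cannot be told apart. Trrap had no row and gave no check of the genotypes.

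Bok belongs to the Bcl-2 family, which decides whether the outer mitochondrial membrane is opened during apoptosis. Together with Bax and Bak1 it forms the pore-forming branch of that family, but Bok sits largely at the endoplasmic reticulum, binds IP3 receptors, and is turned over by the degradation machinery of that organelle. Trp53inp1 is a stress-induced nuclear protein, itself a target of p53 and p73, that assists p53 together with the kinase Hipk2 and also binds LC3-type proteins on autophagosomes. Apoptosis of progenitors and young neurons is a normal part of cortical development, and p53 is a main trigger of it when the genome of progenitors is damaged.

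The sequences just before the transcription start are shown for Bok and for 2 genes set beside it below, its relative Bax, which was higher, and Trp53, which was lower. They are the 250 bases upstream of the RefSeq start on build GRCm38.p6, written 5′ to 3′ on the strand of the gene. Capitals mark matches to the motifs searched on both strands. Bok lies at chr1:93685325-93685574 on the plus strand, Bax at chr7:45466899-45467148 on the minus strand and Trp53 at chr11:69580109-69580358 on the plus strand. Trp53inp1 was not matched in the promoter table.
Bok: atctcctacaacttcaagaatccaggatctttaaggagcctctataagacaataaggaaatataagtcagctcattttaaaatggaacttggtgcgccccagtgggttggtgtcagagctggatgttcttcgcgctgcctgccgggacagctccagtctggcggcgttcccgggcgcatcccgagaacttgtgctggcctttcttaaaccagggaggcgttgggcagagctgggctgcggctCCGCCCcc
Bax: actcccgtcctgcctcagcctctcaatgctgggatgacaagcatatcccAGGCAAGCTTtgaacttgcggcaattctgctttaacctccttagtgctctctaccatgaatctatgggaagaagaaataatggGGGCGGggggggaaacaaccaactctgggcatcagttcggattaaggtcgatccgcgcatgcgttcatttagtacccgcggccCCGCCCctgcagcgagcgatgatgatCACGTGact
Trp53: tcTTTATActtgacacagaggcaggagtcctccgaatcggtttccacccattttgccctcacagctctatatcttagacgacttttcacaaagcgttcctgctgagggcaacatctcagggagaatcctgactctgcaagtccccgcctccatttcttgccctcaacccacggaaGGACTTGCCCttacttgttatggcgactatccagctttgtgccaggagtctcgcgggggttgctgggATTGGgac

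The motifs were the E-box CACGTG, the CCAAT box CCAAT, the GC box GGGCGG, the TATA box TATAAA, 4 forms of the E2F site (TTTCGCGC, TTTGGCGC, TTTCCCGC and TTTGCCGC) and the p53 half-site. The Bok window held 1 match, a GC box on the opposite strand from 8 to 3 bases before the start. A GC box occurred in 32.7% of 32851 windows of the same length. The Bax window held 2 GC boxes, 1 E-box ending 4 bases before the start and 1 p53 half-site that began 201 bases before it. The E-box was found in 6.02% and the p53 half-site in 7.13% of all windows. Trp53 had a p53 half-site beginning 75 bases before its start, a CCAAT box (33.8% of all windows) and, near the far end, TATAAA on the opposite strand (12.4%). No E2F form was found in the 3 windows, against 1.86% of all. The GC content was 55.2% for Bok, 54.0% for Bax and 52.8% for Trp53, and its median over all windows was 52.4%. The motifs of the 3 windows overlapped nowhere, and a match describes letters, not a bound site.

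Bok measured 15.9 FPKM in the control library and 2.62 FPKM in the Trrap-deleted library. The Trrap-deleted value was thus 16.4% of the control value, a 6.08-fold lower level with a log2 ratio of -2.60. The locus lies on chromosome 1 from 95582271 to 95592339 (mm9). In GENCODE M21 Bok is a protein-coding gene whose transcript Bok-201 has 5 exons. The length of the locus in the table (10069 bases) was close to the annotated 10105. No other annotated gene overlapped it. In the authors' deposited table its p-value and q-value are listed at 0, as is the p-value of 60 rows in all.

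Trp53inp1 measured 41.6 FPKM in the control library and 18.5 FPKM in the Trrap-deleted library. This was a 2.25-fold lower level, with a log2 ratio of -1.17, and 44.4% of the control value remained. The locus lies on chromosome 4 from 11083550 to 11102304 (mm9). It spans 18755 bases against 17949 in GENCODE M21, where the transcript Trp53inp1-201 has 4 exons and no other gene overlaps. In the authors' deposited table its q-value was 3.81e-06, and 387 rows had a smaller p-value.

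Both genes were listed lower, as were 42.0% of all rows (999 of 2381), and both were lower by at least 2-fold, as were 13.6%. Because the pair was chosen on this contrast, nothing is read from these counts. By log2 ratio Bok ranked 11th from the lowest of 2376 rows with values above 0 in both libraries, and Trp53inp1 ranked 216th. Of the rows ahead of Bok, 3 reached 5 FPKM in either library. Among single-symbol protein-coding rows with at least 5 FPKM in the higher library, a comparison added after the data were seen, Bok ranked 2nd of 1552 and Trp53inp1 91st. Measured as an absolute difference in FPKM the order of the pair turned round. Trp53inp1 lost 23.2 FPKM (rank 354 by size of the fall) and Bok lost 13.3 FPKM (rank 500).

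The 2 genes started at different levels. In the control library 45.0% of rows had a higher FPKM than Bok, and in the Trrap-deleted library 81.5% did. For Trp53inp1 these shares were 24.3% and 43.5%. Among the 745 rows whose control FPKM was within 2-fold of that of Bok (7.97 to 31.9), Bok had the lowest log2 ratio, while the median of those rows was 0.47 and 42.4% of them were lower. Among the 581 rows within 2-fold of Trp53inp1 (20.8 to 83.3 FPKM in the control), it ranked 40th, with a median of -0.45 and 55.9% of rows lower. These windows were set on the control value and hold only rows that passed the authors' test. The pair was chosen on this contrast, so the positions of Bok and Trp53inp1 in them are a description.

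**Figure D1:**
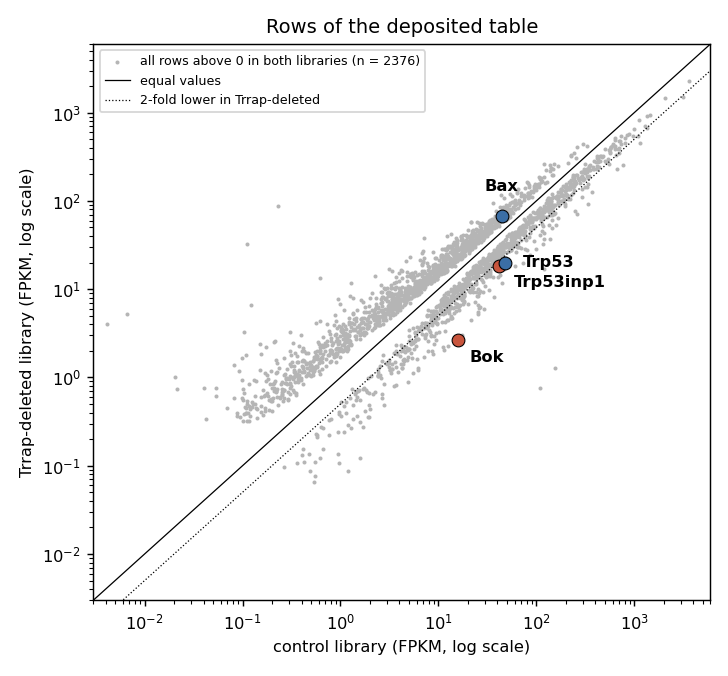
FPKM in the Trrap-deleted library (vertical, log scale) against the control library (horizontal, log scale), 1 grey point for each of 2376 rows. Bok lies at 15.9 and 2.62 FPKM, well under the dotted line of a 2-fold lower value, and Trp53inp1 (41.6 and 18.5) lies beside Trp53 (47.8 and 19.6), while Bax (44.8 and 66.6) lies above the line of equal values.

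The other listed members of the Bcl-2 family were higher, opposite to Bok. Of 28 symbols of the family 4 were listed, 3 higher and 1 (Bok) lower, with 58.0% of all rows higher. Bax, the pore-forming relative of Bok on the mitochondrial side, went from 44.8 FPKM in the control to 66.6 FPKM in the Trrap-deleted library (1.49-fold higher, log2 ratio 0.57). That log2 ratio was 0.03 after rescaling to a median of 0 over all rows and 0.92 after rescaling to equal summed FPKM. The annotated gene Gm45808 overlaps Bax. Bak1, the third of this branch, was not listed. Per length, Bax was 2.81 times as abundant as Bok in the control and 25.4 times in the Trrap-deleted library. Bok made up 26.3% of the summed FPKM of Bok and Bax in the control and 3.79% after Trrap deletion, while the sum itself went from 60.7 to 69.2 FPKM.

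Among the BH3-only proteins, which trigger the pore-forming members, 1 of 8 was listed. Pmaip1, which encodes Noxa, was at 0.119 and 0.438 FPKM in the control and Trrap-deleted libraries (3.69-fold higher), both under 1 FPKM. Bnip3l, a more distant relative that marks mitochondria for autophagy, went from 147 to 231 FPKM (1.57-fold higher, log2 ratio 0.65). Its log2 ratio was 0.10 after rescaling to a median of 0 and 0.99 with equal summed FPKM. None of the 9 survival members, Bcl2, Bcl2l1 and Mcl1 among them, was listed.

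Of 12 genes that encode Bok partners or the degradation pathway of IP3 receptors, 1 had a row of its own. Itpr1, the calcium release channel that Bok binds, was at 9.68 FPKM in the control and 16.7 FPKM in the Trrap-deleted library (1.73-fold higher), opposite to Bok. The row of Erlin2 names a further gene as well and was left out. Itpr2, Itpr3 and Umps were not listed. Downstream of the pore, none of 19 caspase and apoptosome genes and none of 10 genes encoding inhibitor of apoptosis proteins was listed. In the authors' test these steps gave no row, and levels of these genes in the 2 libraries are therefore not known here.

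The p53 gene itself and 2 of its regulators were lower, as was Trp53inp1. Of 28 genes of the p53 family and its regulators, 3 had a row, each lower, where 42.0% of all rows were lower. Their median log2 ratio was -0.86, and that of all rows 0.54. Trp53 went from 47.8 FPKM in the control to 19.6 FPKM in the Trrap-deleted library (2.44-fold lower, log2 ratio -1.29). Its locus in the table spans 31511 bases against 11515 annotated, and GENCODE M21 names 1 pseudogene of it (Trp53-ps), so its value is uncertain. Chek2, a DNA damage kinase that phosphorylates p53, was at 5.83 and 3.22 FPKM (1.81-fold lower). Trp53bp2, a cofactor that directs p53 to apoptotic targets, was at 17.4 and 11.2 FPKM (1.56-fold lower). All 3 stayed lower after rescaling to a median of 0 and to equal summed FPKM. Mdm2, Mdm4, Hipk2, Trp63 and Trp73 were not listed.

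Trp53 and Trp53inp1 kept nearly the same ratio to each other in both libraries. Trp53 was 1.15 times as abundant as Trp53inp1 in the control and 1.06 times in the Trrap-deleted library. With 1 library each, the spread of that ratio is unknown, and the ratio rests on the Trp53 value called uncertain above. Trp53inp1 and Bok, in contrast, moved apart: the level of Trp53inp1 was 2.61 times that of Bok in the control and 7.05 times in the Trrap-deleted library.

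Genes that p53 can activate or repress had no common direction. Of 37 symbols 8 were listed, 4 higher and 4 lower, where 58.0% of all rows were higher. Their median log2 ratio was 0.07, and that of all rows 0.54. Besides Trp53inp1, the lower ones were Psrc1, a microtubule-binding protein gene (29.7 to 10.9 FPKM, 2.73-fold lower), Trp53i11 (58.0 to 29.9 FPKM, 1.94-fold lower) and Ckap2, a spindle protein gene (22.7 to 16.8 FPKM, 1.36-fold lower). The row of Trp53i11 covers a locus of 147095 bases against 14212 annotated, and its value is uncertain. The higher ones were Bax and Pmaip1, given above, Ccng1, cyclin G1 (11.7 to 20.6 FPKM, 1.77-fold higher), and Sesn2, a stress-induced inhibitor of growth signalling (1.505 to 3.25 FPKM, 2.16-fold higher). Cdkn1a, Bbc3, Fas and Zmat3 were not listed.

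**Figure D2:**
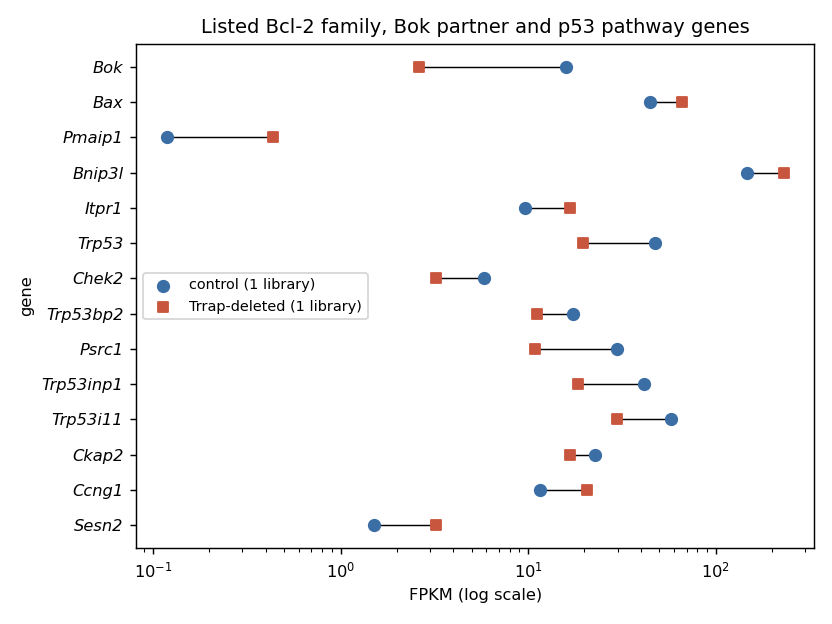
FPKM (log scale) of the 14 listed genes of the Bcl-2 family, Bok partners and p53 pathway, with circles for the control and squares for the Trrap-deleted library, 1 library each. The squares of Bok, Trp53, Trp53inp1, Psrc1, Trp53i11, Ckap2, Chek2 and Trp53bp2 lie to the left of their circles, and those of Bax, Pmaip1, Bnip3l, Itpr1, Ccng1 and Sesn2 to the right; the longest line toward lower values is that of Bok.

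Autophagy is the other process in which Trp53inp1 takes part. Of 39 autophagy symbols 9 were listed, 7 higher and 2 lower where 58.0% of all rows were higher. Their median log2 ratio was 0.61 against 0.54 over all rows. After rescaling to a median of 0 over all rows Atg12 also fell on the lower side, at -0.01. With equal summed FPKM Atg12 was at 0.88. The LC3-family proteins bound by Trp53inp1 include Map1lc3a (28.7 to 54.7 FPKM, 1.91-fold higher) and Gabarapl2 (75.6 to 117 FPKM, 1.55-fold higher). The Map1lc3a row spans 120898 bases against 1777 annotated, so its value is uncertain. Optn, a cargo receptor, was at 0.619 and 1.996 FPKM (3.23-fold higher), and Atg9a, the membrane protein that supplies lipid to the growing autophagosome, at 13.0 and 22.7 FPKM (1.75-fold higher). The Atg9a row spans 29914 bases against 11337 annotated, and Ankzf1 on the opposite strand overlaps the gene, so the Atg9a value is uncertain too. The 2 lower genes were the initiating kinases Ulk1 (30.1 to 20.9 FPKM) and Ulk2 (32.5 to 22.3 FPKM). The paralog of Trp53inp1, Trp53inp2, was not listed.

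In the extrinsic branch of cell death, 2 of 17 genes were listed and they pointed opposite ways. Tnfrsf21, death receptor 6, was at 11.1 FPKM in the control and 7.85 FPKM in the Trrap-deleted library (1.41-fold lower), and Ripk1, the kinase at the fork between survival and necroptosis, was at 3.24 and 5.83 FPKM (1.80-fold higher, at a locus of 119304 bases against 34785 annotated). Of 18 genes for the clearance of dying cells 2 were listed, both higher. These were Megf10, an engulfment receptor (9.51 to 14.6 FPKM), and Abca1, a lipid exporter (4.68 to 9.19 FPKM). Over all 12 lists, 25 of 199 symbols other than Bok and Trp53inp1 were listed, 16 higher and 9 lower, with a median log2 ratio of 0.61. That split is close to the 58.0% of all rows listed higher.

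**Figure D3:**
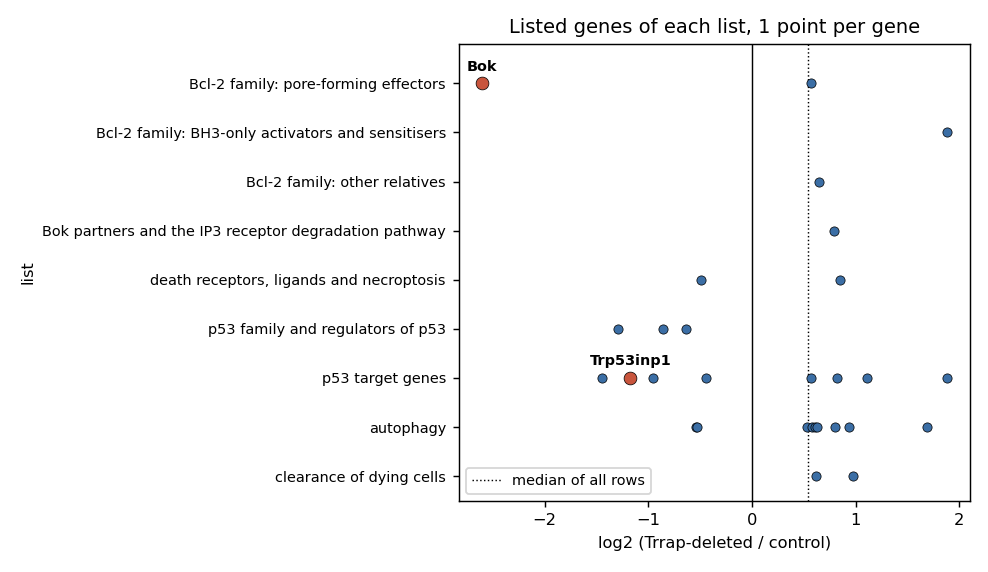
Log2 ratio of Trrap-deleted to control (horizontal) for each listed gene of the 9 lists with a listed gene (vertical), 1 point per gene, with Bok and Trp53inp1 in red; Bax and Pmaip1 appear in 2 lists. Bok at -2.60 is the leftmost point, Trp53inp1 at -1.17 lies between Psrc1 and Trp53i11, and the dotted line is the median of all rows, 0.54.

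The rows most like Bok in level and ratio were of varied function. In the plane of the log2 FPKM of both libraries the rows close to it included 3110035E14Rik (15.5 to 2.86 FPKM, a distance of 0.13) and Rnf122, a ubiquitin ligase gene (12.5 to 2.29 FPKM, distance 0.40). The pseudogene Gm14328 (distance 0.56) and Pycr1, a proline-making enzyme (11.5 to 2.06 FPKM, distance 0.58), lay farther off. By ratio alone, with at least 5 FPKM in the higher library, 3 rows were lower than Bok: Gm6020 (109 to 0.762 FPKM) and the processed pseudogenes Gm15710 (154 to 1.27 FPKM) and Gm13577 (120 to 16.8 FPKM), whose reads may not be unique in the genome; the Gm15710 row spans 930820 bases. On the other side the rows next to Bok included Pycr1, Rnf122, 3110035E14Rik and Klhl35, with log2 ratios from -2.48 to -2.34.

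Trp53inp1 had closer company. Its nearest rows in the same plane were Sms, spermine synthase (41.0 to 19.8 FPKM, distance 0.11), Vat1 (43.0 to 19.7 FPKM, distance 0.11), Zfp68 (38.5 to 17.9 FPKM, distance 0.12), Trim59 (39.7 to 19.96 FPKM, distance 0.13) and Dctpp1, which clears modified nucleotides (41.8 to 20.5 FPKM, distance 0.15). By ratio alone its neighbours on the lower side included Pttg1, the securin gene (32.2 to 14.1 FPKM), Idh1, isocitrate dehydrogenase (118 to 51.8 FPKM), and Sap30, a subunit of a histone deacetylase complex (30.7 to 13.6 FPKM). Sema6c and E130012A19Rik were on the same side, and on the other were Hn1 (327 to 145 FPKM), Stmn4 (48.4 to 21.7 FPKM), BC068157 and the processed pseudogenes Gm9847 and Gm5292. These 10 rows had log2 ratios from -1.19 to -1.16. Likeness rests on 2 libraries only and is a description.

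The listed rows near Bok and Trp53inp1 on the chromosome were few, and 58.0% of all rows were higher. Within 1 Mb of Bok 4 rows were listed, and all 4 were higher, all on the side of lower coordinates. Hdlbp, an RNA-binding protein gene 207 kb away, went from 45.04 to 67.1 FPKM, and Kif1a, a kinesin motor gene 584 kb away, from 60.4 to 96.5 FPKM. Dusp28 (3.84 to 8.21 FPKM) and Gpc1, a heparan sulphate proteoglycan gene (57.6 to 86.2 FPKM), lie farther away. Rescaled to a median of 0, the log2 ratios of Hdlbp and Gpc1 were 0.03 and 0.04. With equal summed FPKM they were 0.92 and 0.93. Within 1 Mb of Trp53inp1 4 rows were listed, 3 higher and 1 lower. The long noncoding RNA gene Gm11815 (0.227 to 1.17 FPKM), Gem, a small GTPase gene (2.84 to 7.78 FPKM), and 1110037F02Rik (18.9 to 24.1 FPKM) were higher. The log2 ratio of 1110037F02Rik was -0.19 after rescaling to a median of 0 and 0.70 with equal summed FPKM. The processed pseudogene Gm12919 (3.01 to 1.40 FPKM), 301 kb away, was lower. The nearest annotated neighbours, Thap4 and Stk25 for Bok and Gm11830 and Ccne2, the cyclin E2 gene, for Trp53inp1, were not listed.

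**Figure D4:**
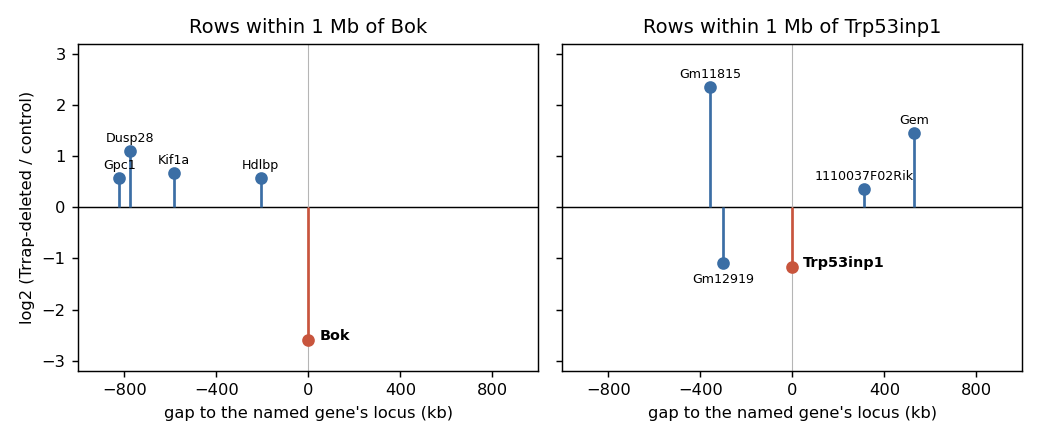
Log2 ratio of Trrap-deleted to control (vertical) of every listed row within 1 Mb of Bok (left) and of Trp53inp1 (right), placed by the gap to that gene in kb. All 4 rows near Bok point up while Bok is at -2.60; near Trp53inp1 (-1.17) 3 rows point up and Gm12919 points down.

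The 2 libraries also differed in markers of cell types and in sex-linked genes. Over all rows 58.0% were higher and 42.0% lower, but the direction varied with the level. With rows split by level into 10 groups, 18.5% were lower in the lowest group and 82.8% in the highest. Weak rows were thus mostly higher. Cell type was not part of this split, and the marker counts below were not matched for level. Of 14 markers of cortical progenitors and neurons 3 were listed, Neurod6, Fezf2 and Bcl11b, at 28.0 to 312 FPKM in both libraries. All 3 were lower. After rescaling to equal summed FPKM, however, the log2 ratio was 0.08 for Neurod6, -0.05 for Fezf2 and -0.06 for Bcl11b. After rescaling to a median of 0 over all rows it was -0.81, -0.94 and -0.95 in the same order. Of 15 markers of microglia and macrophages 10 were listed, all higher, with a summed level of 15.4 FPKM in the control and 40.3 FPKM in the Trrap-deleted library. Of 12 markers of meninges and mesenchyme 7 were listed, all higher (summed 3.27 and 17.4 FPKM). Of 11 markers of the ventral telencephalon and its interneurons 4 were listed, 3 of them lower: Dlx2 (1.95 to 0.358 FPKM), Dlx5 (1.68 to 0.276 FPKM) and Lhx6 (7.06 to 1.71 FPKM). For endothelium and pericytes 2 of 10 (summed 2.07 and 4.24 FPKM), for red blood cells 1 of 7 (Hbb-y, 96.8 and 157 FPKM) and for the choroid plexus 1 of 5 (Ttr, 0.104 and 3.31 FPKM, at a locus of 116251 bases against 9042 annotated) were listed, all higher. Rows at 0 in either library had been left out of the lists, so no listed marker could be at 0. The Y-linked gene Eif2s3y was at 0.111 FPKM in the control and 32.8 FPKM in the Trrap-deleted library, whereas Xist, transcribed from the inactive X chromosome of females, measured 313 and 142 FPKM. The Trrap-deleted library thus held both Y-linked RNA and Xist, and in the control Eif2s3y, Ddx3y and Kdm5d were at or under 0.111 FPKM. The part of cell composition and of embryo sex in the values of Bok and Trp53inp1 was not tested, and with 1 library per genotype they cannot be told apart from the deletion.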

How the data were processed

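RNA from 2.5 µg per library was sequenced from 2 cortex samples, 1 per genotype. Per the submitters' processing notes the authors used TopHat2 and build mm9, and no counting or testing program is named in the sources used here. The file deposited by the authors holds only rows marked significant (highest q-value 0.0500), with a value per library read as FPKM from the column layout, which does not write the unit, and with the p-value and q-value of the authors' own test. The FPKM carry no counts, so depth is unknown. Whether counting used strand is not stated.

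Log2 ratios of Trrap-deleted over control were computed without a pseudocount from rows above 0 in both libraries (2376 of 2381; 4 further rows were at 0 in the control and 1 after Trrap deletion). No test was run, because each genotype had 1 library. The 12 pathway lists (201 symbols) and 7 marker lists were written from textbook knowledge, and they and the pair of genes were chosen with earlier results of these data known. A symbol matched by itself or by a RefSeq synonym. Rows with several symbols or at 0 in either library were left out of the lists, and the strongest row stood for a symbol. Named were Bok, Trp53inp1, the 5 rows nearest to each by ratio on either side and in the plane of both libraries, rows within 1 Mb, all listed genes of lists with at most 6 and otherwise the 3 with the largest ratio in each direction; further genes were named after their values were seen, and a few genes that meet the rule are not reported here. Gene types, lengths and neighbours came from GENCODE M21 and RefSeq (GRCm38.p6), by symbol, with 1 added to file starts. The promoter table held 1 of the 2 genes, and protein sequences were not used here. Python 3.11.15, pandas 2.3.3, numpy 2.4.6 and scipy 1.17.1 were used, and the code was tested on simulated data.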

Additional observations from a re-analysis of the deposited data

How the results depend on the processing

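Bok and Trp53inp1 were lower under both pseudocounts and both rescalings. The log2 ratio of Bok ranged from -3.15 (rescaled to a median log2 ratio of 0) to -2.23 (pseudocount of 1), and that of Trp53inp1 from -1.72 (the same rescaling) to -0.83 (equal summed FPKM). The ranks moved more. Bok, 11th from the lowest, ranked 7th among rows of at least 1 FPKM, 4th at 5 FPKM or with a pseudocount of 1, 6th at a q-value under 0.01 and 2nd among single-symbol protein-coding rows of at least 5 FPKM. Trp53inp1, 216th, ranked 127th at 5 FPKM, 122nd with a pseudocount of 1 and 91st among those protein-coding rows. The share of rows listed lower, 42.0% (exact 95% interval 39.96% to 43.97%, counting error only), was 47.8% at 5 FPKM and 49.9% after rescaling to a median of 0. The count of 16 higher and 11 lower genes over the pathway lists stayed within 1.5 times under each setting tried. At a q-value under 0.01 11 higher and 8 lower remained by count; Bax, Bnip3l, Ripk1, Sqstm1 and Abca1 (higher) and Tnfrsf21, Chek2 and Ckap2 (lower) dropped out. No paired analysis was possible because each genotype had 1 library, and no replicate could be left out. The ranks that include rows at 0 and those over single-symbol protein-coding rows were chosen after seeing the data. A log2 ratio was taken to have moved when it changed by more than 1.5-fold.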

Other observations

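Further genes with a known part in cell death, outside the lists and chosen after their values were seen, also had rows. Tmbim6, which encodes Bax inhibitor 1 of the endoplasmic reticulum, was at 56.5 FPKM in the control and 113 FPKM in the Trrap-deleted library (2.00-fold higher), and Faim2, a neuronal inhibitor of Fas signalling from the same protein family, at 0.858 and 3.91 FPKM (4.56-fold higher). Both ratios stayed above 0 after either rescaling. Dap, a death-associated protein gene, was at 4.99 and 9.94 FPKM, and Foxo1, a stress-responsive transcription factor gene, at 2.71 and 4.44 FPKM.

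Lower in the Trrap-deleted library were Dapk1, a kinase that promotes cell death (38.0 to 26.1 FPKM), Bag1, a cochaperone that binds Bcl-2 (65.1 to 44.6 FPKM), Trim24, a ubiquitin ligase for p53 (37.9 to 21.2 FPKM), and Rassf2, a Ras-binding tumour suppressor gene (11.6 to 4.20 FPKM). E2f3, a transcription factor gene of the cell cycle, was at 15.6 and 9.60 FPKM, and Tnfrsf19, a receptor of the TNF family, at 32.6 and 25.1 FPKM. All 6 were also lower after either rescaling, Tnfrsf19 with a log2 ratio of -0.03 when the summed FPKM were made equal.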
